A study of Mus musculus with 32 samples.

Results

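The expressed Zfp genes are mouse genes whose symbol is Zfp followed by a number and whose transcripts reached a mean of 8 CPM (the count of a gene relative to the total count of its library) over all 32 libraries of the series. They numbered 223 of the 361 such symbols, among 24890 gene symbols in all. Of the rest, 135 lay below the limit, and Zfp42, Zfp352 and Zfp951 were left out by name. The members nearest to the limit were Zfp36 at 8.15, Zfp563 at 8.14 and Zfp58 at 8.07 CPM, and the nearest genes outside it were Zfp383 at 7.99, Zfp653 at 7.85 and Zfp619 at 7.81 CPM. The members were chosen by their mean level over both arms of the study, so the level itself is a description and the differences between the arms were not used by it. All 223 members were among the 15036 genes that passed the filter on low counts.

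Polyadenylated RNA was sequenced from E14 cells, a mouse embryonic stem cell line labelled wild-type. The first arm, NrESC, was grown with 10 µM T0901317, a synthetic compound that activates LXR, nuclear receptors for oxidized cholesterol, and the second arm, ESC, was grown without it. Both arms were kept on gelatin in serum medium with 1000 U/mL of leukemia inhibitory factor, 3 µM of the GSK3 inhibitor CHIR99021 and 1 µM of the MEK inhibitor PD0325901. Each arm was sampled at passages 0, 2, 4, 6, 8, 10, 12 and 14 with 2 libraries per passage, and the NrESC libraries of passage 0 are labelled as treated without the length of treatment. No label says if a group's 2 libraries were made from different cultures, so the spread between them may be technical. All p-values measure only the spread between these samples. Those for single passages and for the variation among them rest on the spread between the 2 libraries. Those for the mean of passages and for slopes rest on the spread between passages, which are serial samples of 1 line.

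Library totals ran from 24989651 to 50463483 counts. In the levels of the expressed Zfp genes, the pair of NrESC libraries from passage 8 lay apart from the rest. On the first principal component of their log2 CPM, which held 60.4% of the variance, these 2 libraries lay at 7.97 and 8.20, the other 14 NrESC libraries between -0.26 and 2.13, and the 16 ESC libraries between -3.97 and -0.49. Levels of single libraries and marker sums are given as CPM scaled by TMM, while the limit of 8 was set on CPM without that scaling. The main counts over all members are given with and without passage 8. Embryonic stem cell markers were high in both arms: the summed level of Pou5f1, Nanog, Sox2 and 5 others had a lowest, median and highest value of 6856, 7535 and 8445 CPM in NrESC libraries and 6962, 7407 and 8116 CPM in ESC libraries. The 9 fibroblast markers, 1 of them at 0, summed to a median of 40.1 CPM in NrESC and 37.8 CPM in ESC libraries. Pdgfrb was the largest part, with a mean of 24.3 CPM in NrESC and 19.7 CPM in ESC without TMM scaling. Col3a1, Dcn and Postn had means of at most 0.00932 CPM in either arm.

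Most Zfp proteins hold C2H2 zinc fingers, short loops of protein folded around a zinc ion that in tandem read a stretch of DNA. Many of them also carry a KRAB domain, which binds the co-repressor Trim28 (KAP1). Trim28 in turn brings in the histone methyltransferase Setdb1 and heterochromatin proteins, and in embryonic stem cells this machinery is known for silencing endogenous retroviruses and for keeping DNA methylation at imprinted regions. KRAB zinc finger genes lie in clusters that grew by local gene duplication, so neighbours can be near copies of each other. Other Zfp genes encode proteins with no such role, among them RNA-binding proteins and ubiquitin ligases.

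The members that differed most between the arms lay in such clusters on chromosomes 4 and 7, and their promoters are shown because they carry long shared stretches. The capitals mark the longest word common to the promoters of each set, found after the fold changes were seen. Sequences are RefSeq promoter windows of the GRCm38.p6 build (250 bases before to 50 after the annotated start), of which a stretch around the word is given 5′ to 3′ on the gene's strand.
Zfp981 (chr4:146514741-146514865, plus strand): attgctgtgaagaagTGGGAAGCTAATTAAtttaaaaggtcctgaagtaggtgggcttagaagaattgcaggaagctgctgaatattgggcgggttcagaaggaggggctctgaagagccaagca
Zfp600 (chr4:146156677-146156801, plus strand): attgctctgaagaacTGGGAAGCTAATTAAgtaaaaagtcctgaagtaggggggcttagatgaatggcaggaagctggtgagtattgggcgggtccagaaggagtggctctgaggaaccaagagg
Zfp980 (chr4:145670541-145670665, plus strand): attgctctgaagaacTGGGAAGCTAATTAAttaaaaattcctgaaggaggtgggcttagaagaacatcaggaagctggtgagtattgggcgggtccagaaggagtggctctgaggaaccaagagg
Zfp985 (chr4:147553126-147553250, plus strand): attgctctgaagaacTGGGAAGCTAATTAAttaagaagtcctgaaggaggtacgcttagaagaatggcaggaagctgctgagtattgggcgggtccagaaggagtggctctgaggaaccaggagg
Zfp936 (chr7:43177374-43177504, plus strand): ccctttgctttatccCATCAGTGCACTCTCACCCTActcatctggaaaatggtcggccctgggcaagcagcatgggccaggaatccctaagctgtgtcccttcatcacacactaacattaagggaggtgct
Zfp976 (chr7:42642678-42642808, minus strand): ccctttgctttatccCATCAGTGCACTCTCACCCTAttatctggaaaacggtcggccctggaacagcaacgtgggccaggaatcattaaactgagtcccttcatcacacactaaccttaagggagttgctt
The 15-base word of the first 4 was present in the windows of 8 members on chromosome 4 (Zfp980, Zfp987, Zfp600, Zfp981, Zfp985, Zfp979, Zfp534 and Zfp984), and in 12 of the 27025 genes with a window. Identity between pairs of the 8 whole windows ran from 72.5% (Zfp534 and Zfp984) to 98.3% (Zfp600 and Zfp979), with a median of 85.3% over 28 pairs. The 21-base word of the chromosome 7 set stood in the windows of Zfp936, Zfp975, Zfp976 and Zfp977 and in 5 genes in all, and the identity of these 4 windows ran from 87.4% to 92.9%. These 4 were picked from a run of 7 members. The windows of Zfp788, Zfp141 and Zfp715, also in that run, lacked the word.

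The first question was how the members differed between NrESC and ESC over the 8 passages. Of the 223 members, 51 (22.9%) were called higher in NrESC and 70 (31.4%) lower, while the background over all genes tested was 28.3% higher and 27.2% lower (29.4% and 28.9% among genes with a mean CPM of 8 or more). Both shares are near the background, and the median log2 fold change of the members was -0.03, against -0.0008 over all genes tested. Calls rest on edgeR's quasi-likelihood test with passage as the unit, in which counts were added up within each arm and passage to give 8 pairs, at a Benjamini-Hochberg adjusted p under 0.05 over all genes tested. Without passage 8, 61 members were higher (27.4%, background 28.5%, and 30.7% of the genes with a mean CPM of 8 or more) and 72 lower (32.3%, background 27.6% and 29.3%). With the 2 libraries of a group as the unit of error, 76 were higher (34.1%, background 39.1% and 41.2%) and 101 lower (45.3%, background 39.8% and 44%).

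Large differences were few and mostly decreases. Only 3 members differed by 2-fold or more, Zfp981, Zfp600 and Zfp936, and all were lower (1.35% of members, background 3.13% of all genes tested and 0.465% of the genes with a mean CPM of 8 or more), while none was higher (background 1.64% and 0.433%). Without passage 8 the count was 2 (0.897%, background 3.04% and 0.412%), as Zfp936 then had a log2 fold change of -0.96. At 1.5-fold, 2 members were higher (0.897%, background 6.18% and 2.63% among genes with a mean CPM of 8 or more) and 9 were lower (4.04%, background 7% and 1.9%). Without passage 8, none was higher by 1.5-fold (background 5.19% and 2.22%) and only those 3 were lower (1.35%, background 6.58% and 1.47%), with Zfp36 at 0.56 and Zfp523 at 0.57 on the log2 scale. The 16 NrESC and 16 ESC libraries did not overlap for 8 members lower in NrESC (3.59%, background 1.32%, and 1.81% of the genes with a mean CPM of 8 or more) and for 1 member higher (0.448%, background 1.66% and 2.24%). Without passage 8, 8 were lower (3.59%, background 1.63% and 2.19%) and 3 higher (1.35%, background 1.88% and 2.54%). The 8 lower ones were Zfp981, Zfp600, Zfp936, Zfp980, Zfp985, Zfp141, Zfp24 and Zfp281, and the higher one was Zfp341; Zfp141 and Zfp24 lie outside the rule for named genes and were named after their values were seen. The 3 genes left out by name were all called lower as well, with log2 fold changes of -2.19 (Zfp951), -2.10 (Zfp352) and -0.32 (Zfp42), so the choice of members leaves out the strongest decreases among Zfp genes of any level.

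The members were then sorted by protein sequence. A KRAB A box pattern together with C2H2 fingers was found in 91, C2H2 fingers without that pattern in 126, and no C2H2 match in 6. The pattern is strict: Zfp57, known as a KRAB protein, did not match it. Of the 91 KRAB members, 12 (13.2%) were higher and 36 (39.6%) lower in NrESC, with a median log2 fold change of -0.07. The background was 28.3% higher and 27.2% lower, and 29.4% and 28.9% among genes with a mean CPM of 8 or more. Of the 126 without a KRAB match, 36 (28.6%) were higher and 32 (25.4%) lower, with a median of 0.01, which turned to -0.00097 with DESeq2 size factors. The 2 classes were not tested against each other. Without passage 8, 15 KRAB members were higher and 37 lower, and 43 members without a KRAB match were higher and 33 lower. The 6 members with no C2H2 match included Zfp36, Zfp839 and Zfp330, which rose, and Zfp935, which fell.

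**Figure D1:**
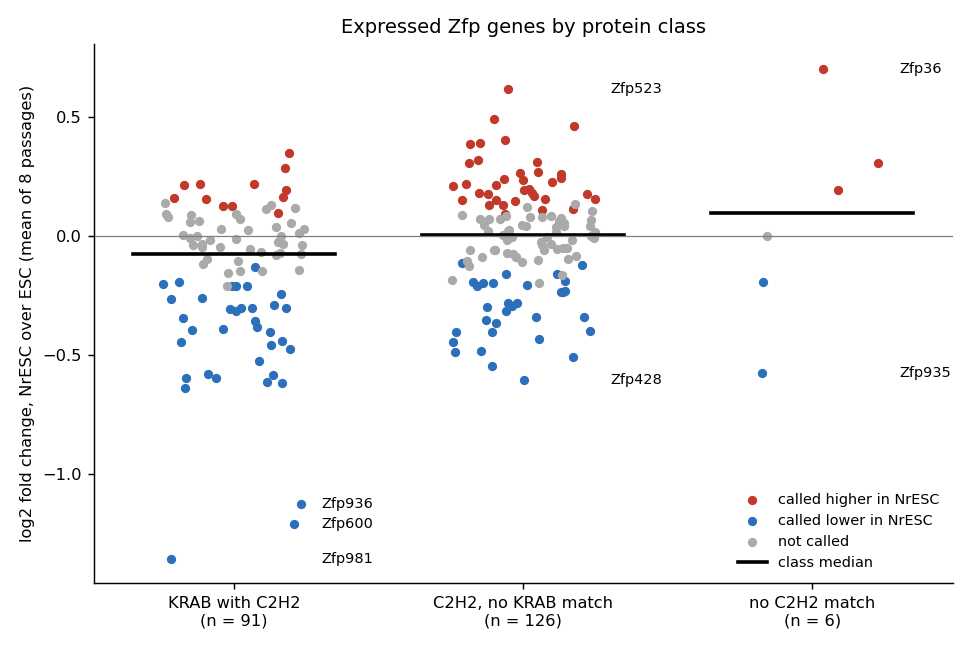
Each point is 1 expressed Zfp gene, placed by protein class on the horizontal axis and by its log2 fold change of NrESC over ESC in the mean of 8 passages on the vertical axis; red points were called higher in NrESC, blue points lower, grey points not called, and bars are class medians. Zfp981, Zfp600 and Zfp936 lie below all other members, all in the KRAB class, and its median is -0.07 against 0.01 for C2H2 members with no KRAB match.

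Position in the genome was compared next. Members separated by at most 5 protein-coding genes were joined into runs, which gave 37 runs holding 128 members and left 95 members alone. In the runs 23 members (18%) were higher and 47 (36.7%) lower, and outside them 28 (29.5%) were higher and 23 (24.2%) lower, a difference that was not tested. The background was 28.3% higher and 27.2% lower, and 29.4% and 28.9% among genes with a mean CPM of 8 or more. Without passage 8, 30 members in runs were higher and 48 lower, and 31 outside them were higher and 24 lower. Of the 13 runs with 4 or more members, the 2 with the lowest medians both lie on chromosome 4 and hold the promoters with the 15-base word. In these, 5 of 6 and 4 of 4 members fell, and in the run with the next lowest median, on chromosome 7, 5 of 7 fell. Every member of these runs is in the KRAB class, so the counts by class and by run share these decreases.

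In the run from Zfp990 to Zfp981, 5 of 6 members fell, with a median log2 fold change of -0.61 (-0.53 without passage 8). Zfp981 had a lowest, median and highest level of 6.69, 10.5 and 15.6 CPM in NrESC libraries, against 17.2, 26.7 and 39.3 CPM in ESC libraries. The highest NrESC library thus lay below the lowest ESC library, and the log2 fold change was -1.36 (SE 0.15, edgeR adjusted p = 3.23e-05). The arms were closest at passage 0, where the 2 libraries had 15.6 and 14.9 CPM in NrESC and 20.9 and 21.1 CPM in ESC (log2 fold change -0.47), and were furthest apart at passage 8, with 6.69 and 7.51 CPM in NrESC and 31.7 and 31.3 CPM in ESC.

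Zfp600 had 24.1, 34.9 and 63.3 CPM (lowest, median, highest) in NrESC and 67.2, 82.9 and 111 CPM in ESC, again with no overlap. Its log2 fold change was -1.21 (SE 0.11, edgeR adjusted p = 1.25e-05). Like Zfp981, it had its smallest difference at passage 0, where 58.4 and 63.3 CPM in NrESC stood against 84.1 and 86.3 CPM in ESC. Zfp980, the member of this run with the highest count, had 65.9, 99.5 and 125 CPM in NrESC and 129, 149 and 186 CPM in ESC, a log2 fold change of -0.62 (SE 0.074). Zfp987 (-0.59) and Zfp990 (-0.58) also fell, at 8 of 8 passages each. Zfp992, the sixth member, had 31.8 CPM in NrESC and 35.6 CPM in ESC in the median and was not called (-0.15, edgeR adjusted p = 0.0923). Neither Zfp990 nor Zfp992 had a promoter window, so the shared promoter word could not be looked for in them. The other protein-coding gene of the run, Gm13212, carries the same promoter word and fell by 1.43 on the log2 scale (SE 0.2), at 0.754 ± 0.271 CPM in NrESC and 2.04 ± 0.583 CPM in ESC (SD over 8 passage means).

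In the neighbouring run from Zfp985 to Zfp984 all 4 members fell, with a median of -0.49. Zfp985 had 19.1, 27.2 and 33.3 CPM in NrESC and 34.1, 39.3 and 50.6 CPM in ESC (lowest, median, highest), so its arms did not overlap, and its log2 fold change was -0.59 (SE 0.074). Zfp534 fell by 0.64, Zfp979 by 0.39 and Zfp984 by 0.24 on the log2 scale, each at 8 of 8 passages. Of the 12 genes with the 15-base word, 10 were tested: 9 were lower, and Zfp982, at 0.988 CPM in ESC, was not called (-0.21). The word was found in members chosen for their fall, so this count is a description.

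The chromosome 7 run from Zfp788 to Zfp715 held 7 members, of which 5 fell (median -0.38). Zfp936 had 15.4, 37.6 and 51.0 CPM in NrESC and 63.0, 76.4 and 113 CPM in ESC (lowest, median, highest). Its arms did not overlap, and its log2 fold change was -1.12 (SE 0.15, edgeR adjusted p = 0.000118). Zfp977 fell by 0.58 and Zfp975 by 0.38 on the log2 scale. Zfp141 (-0.44) and Zfp715 (-0.21), whose windows lacked the 21-base word, also fell, while Zfp788, which lacked it too, was not called (-0.0061). Zfp976, whose promoter window is shown above, had 36.6, 43.3 and 51.0 CPM in NrESC against 37.0, 43.5 and 53.1 CPM in ESC, a log2 fold change of -0.0001 (SE 0.045), and was not called (edgeR adjusted p = 0.999). EU599041, the fifth gene with the 21-base word, was not called either (0.01, SE 0.05). The counts are RSEM estimates, which can divide reads shared by near-identical genes and then need not be whole. None of the members with either word had a count that was not whole, while Zfp91 had 84.4% and Zfp956 37.5% of values not whole. How shared reads were handled before counting is not given, so whole counts do not show that none were lost or misplaced among near copies.

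Further runs differed in other ways. In the run from Zfp871 to Zfp563, 4 of 8 members rose (Zfp811, Zfp799, Zfp870 and Zfp871) and none fell, with a median of 0.12. Without passage 8 the call of Zfp871 was lost (edgeR adjusted p = 0.0501). In the run from Zfp84 to Zfp146, 3 of 10 members rose and 5 fell, so neighbours moved in opposite directions. Zfp568, in that run, is the KRAB protein known for repressing a placental promoter of Igf2, and it fell by 0.19 on the log2 scale. That change was -0.12 without passage 8, and its call was lost without passage 2, 4, 6 or 10 (highest adjusted p = 0.0616, edgeR).

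**Figure D2:**
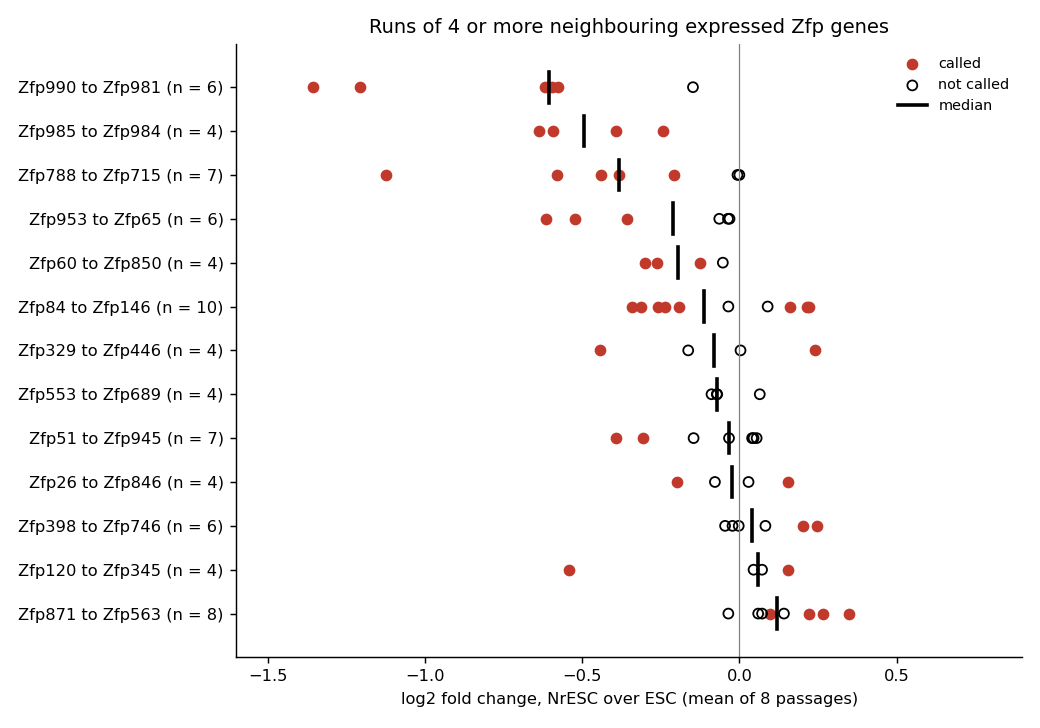
Each row is a run of 4 or more neighbouring expressed Zfp genes, named by its first and last member, each point is 1 member placed by its log2 fold change of NrESC over ESC in the mean of 8 passages, filled points were called, open points were not, and bars are run medians. The top 3 rows have medians of -0.61, -0.49 and -0.38 and hold Zfp981, Zfp600 and Zfp936, and the bottom row is the run from Zfp871 to Zfp563 at 0.12.

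Markers of 2-cell-like cells, a rare state of embryonic stem cell cultures, were also lower in NrESC than in ESC. The 6 markers found in the data (Zscan4c, Zscan4d, Zscan4f, Gm5662, Zfp352 and Tmem92, none at 0) summed to a lowest, median and highest value of 7.49, 18.2 and 26.1 CPM in NrESC libraries and 16.9, 88.8 and 133 CPM in ESC libraries, and all 6 were called lower. At passage 0 the sums were 7.49 and 9.76 CPM in NrESC and 17.4 and 16.9 CPM in ESC. These were the lowest sums of each arm. At passage 4 the sums were 18.4 and 16.2 CPM in NrESC and 128 and 133 CPM in ESC. At passage 10 they were 25.5 and 24.7 CPM in NrESC and 128 and 122 CPM in ESC. Their part in the decreases of Zfp genes was not tested. In bulk RNA, fewer cells of a type and less RNA per cell cannot be told apart.

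Beyond the chromosome 4 and 7 runs, the strongest decreases were those of Zfp459, Zfp428 and Zfp935. Zfp459 had 3.36, 8.65 and 12.8 CPM in NrESC and 10.2, 12.5 and 16.4 CPM in ESC (lowest, median, highest), with overlap, and a log2 fold change of -0.61 (SE 0.11). Zfp428 had 15.2, 33.8 and 42.0 CPM in NrESC and 37.1, 47.4 and 61.3 CPM in ESC, with a log2 fold change of -0.60 (SE 0.096). Zfp935 fell by 0.57 on the log2 scale. All 3 were lower at 8 of 8 passages.

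The increases were smaller and came mostly from genes outside the KRAB class. Zfp36 (tristetraprolin) binds AU-rich elements of messenger RNAs and speeds their decay. It had 5.16, 9.17 and 19.5 CPM in NrESC and 3.58, 5.58 and 10.5 CPM in ESC (lowest, median, highest). The ranges overlapped, but NrESC was higher at 8 of 8 passages, with a log2 fold change of 0.71 (SE 0.14, edgeR adjusted p = 0.00153). Zfp523, a relative of the promoter-binding factor Zfp143, had 17.7, 21.4 and 26.1 CPM in NrESC and 11.1, 12.4 and 21.3 CPM in ESC, and rose by 0.62 (SE 0.071, edgeR adjusted p = 4.05e-05). Zfp444 rose by 0.49, Zfp692 by 0.46, Zfp775 by 0.40 and Zfp811 by 0.35 on the log2 scale. Zfp341, whose human counterpart activates the STAT3 gene, was the member whose libraries did not overlap: it had 9.87, 11.3 and 12.1 CPM in NrESC and 7.48, 8.46 and 9.84 CPM in ESC, a log2 fold change of 0.39 (SE 0.05). Zfp516, known from brown fat, where it activates Ucp1, rose by 0.32, and Zfp397 by 0.31, Zfp512 by 0.31, Zfp839 by 0.31 and Zfp661 by 0.29. These 12 were the highest among called members with 1 sign at 8 of 8 passages, of which there were 38 higher (17%, background 19.8%, and 21.8% of the genes with a mean CPM of 8 or more) and 52 lower (23.3%, background 17.7% and 20.1%). Without passage 8, 49 were called higher (22%, background 21.5% and 24%) and 53 lower (23.8%, background 19% and 21.4%) with 1 sign at all 7 passages.

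**Figure D3:**
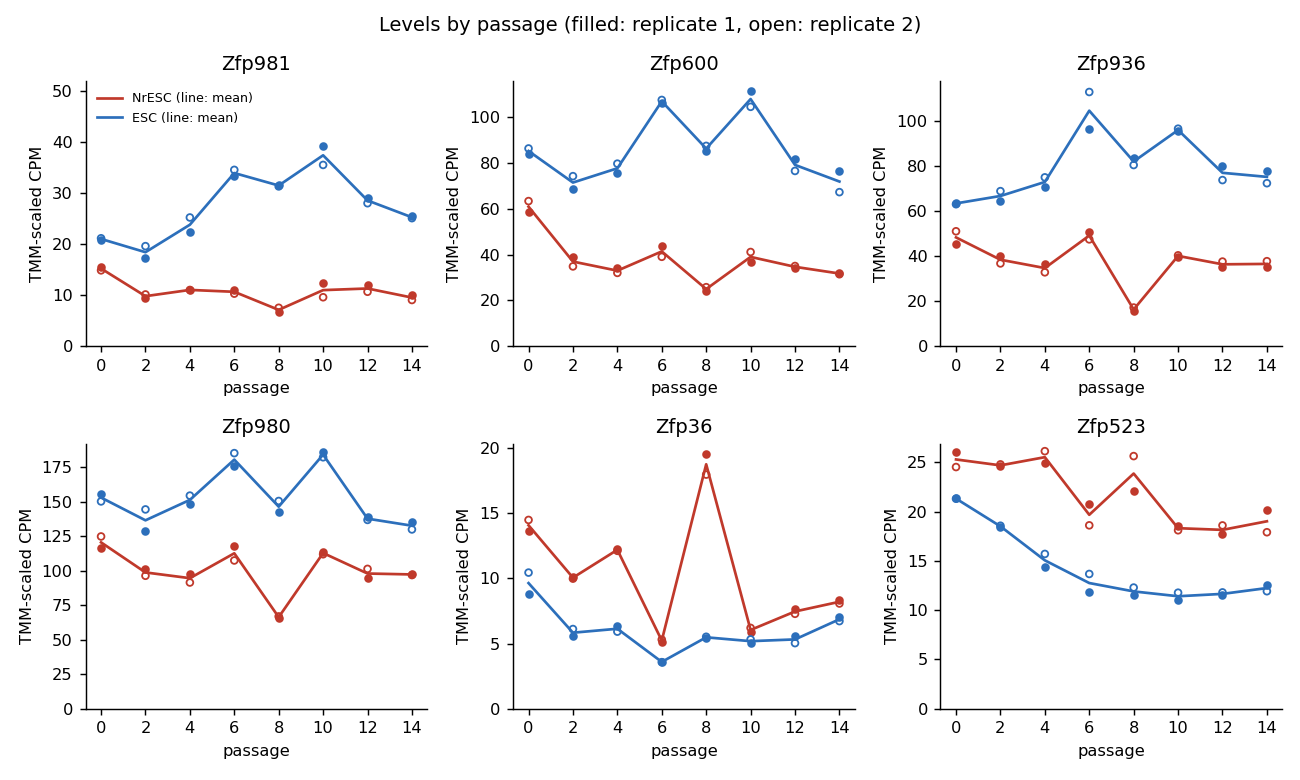
TMM-scaled CPM is plotted against passage for 6 members, in red for NrESC and blue for ESC, with a filled point for replicate 1, an open point for replicate 2 and a line through the mean of both. The NrESC points of Zfp981, Zfp600, Zfp936 and Zfp980 lie below those of ESC at every passage, and Zfp36 in NrESC has its highest points, 19.5 and 18 CPM, at passage 8.

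By transcript level per length (TPM), the highest members were Zfp57, Zfp207, Zfp106, Zfp706 and Zfp330. Zfp57, which holds DNA methylation at imprinted regions, had a mean of 371 TPM in NrESC and 356 TPM in ESC, while the median member had 11.5 TPM over both arms. Zfp207, a spindle assembly factor, had 231 TPM in NrESC and 251 TPM in ESC. Of these 5, only Zfp330 was called in the mean of passages, with a log2 fold change of 0.19 (SE 0.032). The other 4 had log2 fold changes of 0.11 (Zfp57), -0.08 (Zfp207), 0.02 (Zfp106) and -0.05 (Zfp706), and Zfp57 was called higher without passage 8 (0.18).

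Several members are known to act on retroviruses or imprinted regions. Zfp809, which binds the primer binding site of murine leukemia viruses, had 31.0, 39.2 and 47.8 CPM in NrESC and 38.5, 48.1 and 57.9 CPM in ESC (lowest, median, highest) and fell by 0.30 on the log2 scale (SE 0.074). Zfp932, a repressor of endogenous retroviruses, fell by 0.30 (SE 0.11), a call lost without passage 4, passage 10 or replicate 2 of every group (highest adjusted p = 0.079, edgeR), and without passage 8 the change was -0.19. Zfp961 had 49.7, 81.5 and 90.7 CPM in NrESC and 87.1, 102 and 123 CPM in ESC and fell by 0.47 (SE 0.086), at 8 of 8 passages. Zfp445, the partner of Zfp57 at imprinted regions, had a log2 fold change of -0.07 and was not called (edgeR adjusted p = 0.0572).

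Members with other known roles went both ways. Zfp638, which acts with the HUSH complex on unintegrated retroviral DNA, had 118, 195 and 236 CPM in NrESC and 213, 255 and 300 CPM in ESC and fell by 0.45 (SE 0.076), at 8 of 8 passages. Zfp462, linked to heterochromatin through G9a and GLP, fell by 0.40. Zfp281, a regulator of the exit from pluripotency, had 86.6, 117 and 130 CPM in NrESC and 131, 136 and 164 CPM in ESC, which did not overlap, and fell by 0.29 (SE 0.047). Zfp296, a reprogramming factor, fell by 0.34 (SE 0.13), Zfp91, a ubiquitin ligase, by 0.20, and Zfp410, the activator of Chd4, by 0.11, while Chd4 itself was not called (-0.02). The calls of Zfp296 and Zfp410 were each lost in 10 of the alternatives tried, among them DESeq2 for Zfp296 and a total count scaling for Zfp410, and without passage 8 the change of Zfp296 was -0.18. Zfp143 rose by 0.22, and Zfp598, which marks collided ribosomes, by 0.18. Zfp217 (0.07) and Zfp335 (-0.10) were not called.

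Transcripts of the proteins through which KRAB zinc fingers act were mostly called lower in NrESC. Of 19 genes of a list of co-repressors, 14 fell (73.7%, background 27.2%) and none rose (background 28.3%), with a median of -0.14. Without passage 8, 13 fell. Trim28 averaged 1409 CPM in NrESC and 1635 CPM in ESC, a log2 fold change of -0.23 (SE 0.065). Setdb1 fell by 0.29, its cofactor Atf7ip by 0.36, the remodeller Smarcad1 by 0.42 and the Setdb1 regulator Resf1 by 0.47. The heterochromatin proteins Cbx1 (-0.12) and Cbx3 (-0.18) were called lower, whereas Cbx5 had -0.03 and was not. Other zinc finger families had 11 higher and 11 lower of 35 Zbtb genes, 6 higher and none lower of 11 Zkscan genes, 3 higher and 2 lower of 10 Zscan genes without Zscan4, and 5 higher and 4 lower of 17 Klf genes. Zfp genes below the CPM limit had 19 higher and 32 lower of 117 tested, with a median of -0.11. These lists were not tested against the members.

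The second question was whether the arm difference held over the passages. It differed between passages for 186 of 223 members (83.4%), against 69.4% of all genes tested and 85.3% of the genes with a mean CPM of 8 or more, in edgeR's joint test of the 7 differences between passages at an adjusted p under 0.05. Without passage 8 the count was 114 (51.1%, against 51.7% of all genes tested and 66.6% of the genes with a mean CPM of 8 or more). For single passages, parentheses give the share of members, of all genes tested, and of the genes with a mean CPM of 8 or more. At passage 0, 46 members were higher (20.6%, 17.6% and 22.6%) and 35 lower (15.7%, 14.8% and 20.3%). At passage 2, 56 were higher (25.1%, 24.7% and 29.9%) and 62 lower (27.8%, 23.8% and 29.5%). At passage 4, 47 were higher (21.1%, 27.4% and 34%) and 80 lower (35.9%, 26.9% and 31.7%). At passage 6, 52 were higher (23.3%, 23.6% and 28.5%) and 69 lower (30.9%, 25.1% and 28.6%). At passage 8, 48 were higher (21.5%, 35.2% and 37.2%) and 132 lower (59.2%, 34.6% and 41.9%), with a median log2 fold change of the members of -0.26. At passage 10, 54 were higher (24.2%, 27% and 29.2%) and 74 lower (33.2%, 28.5% and 35.5%). At passage 12, 61 were higher (27.4%, 23.1% and 27.4%) and 58 lower (26%, 24% and 28.6%). At passage 14, 48 were higher (21.5%, 19.7% and 26%) and 54 lower (24.2%, 21.3% and 23.2%). The medians at the 7 other passages ran within -0.03 and 0.02. Called at each of the 8 passages were 9 members higher (4.04%, background 6.44%, and 9.02% of the genes with a mean CPM of 8 or more) and 24 lower (10.8%, background 4.99% and 7.13%). Without passage 8, called at each of the other passages were 10 higher (4.48%, background 6.89% and 9.71%) and 24 lower (10.8%, background 5.27% and 7.49%).

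**Figure D4:**
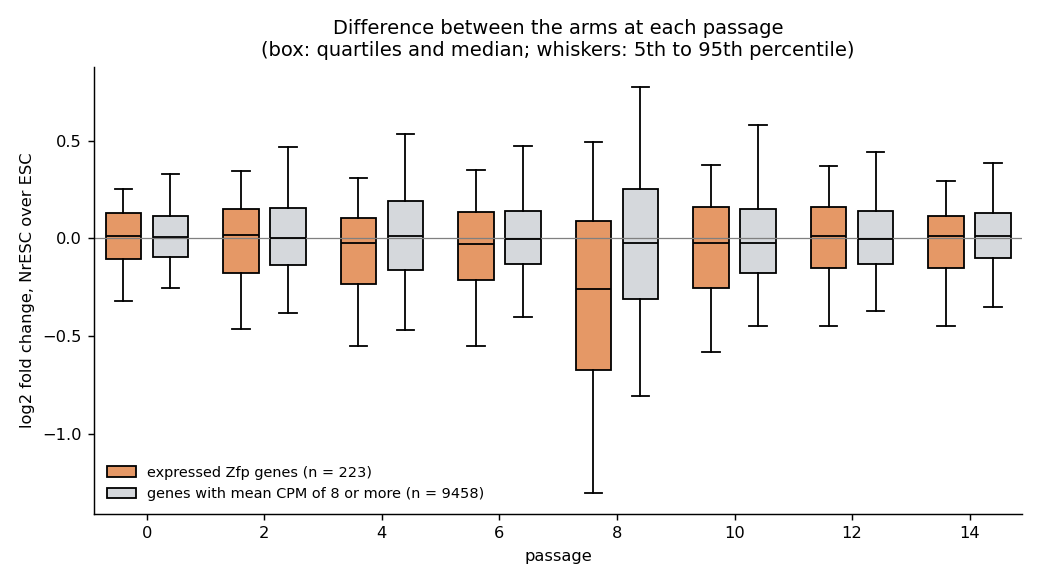
Boxes show the quartiles and median of the log2 fold change of NrESC over ESC at each passage, with whiskers at the 5th and 95th percentile, in orange for the 223 expressed Zfp genes and in grey for the 9458 genes with a mean CPM of 8 or more. At passage 8 the orange box is shifted down, with a median of -0.26 against -0.02, and at the other passages the orange and grey medians lie between -0.03 and 0.02.

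Passage 8 of NrESC was set against its neighbours by its own contrast, NrESC at passage 8 against NrESC at passages 6 and 10. Of the members, 43 were higher (19.3%, background 36.9%, and 37% of the genes with a mean CPM of 8 or more) and 140 lower (62.8%, background 32.8%, and 42.9% of the genes with a mean CPM of 8 or more). The median was -0.29, against 0.03 over all genes tested and -0.03 over the genes with a mean CPM of 8 or more. Among the KRAB members 63 of 91 were lower and 7 higher, and among C2H2 members with no KRAB match 76 of 126 were lower and 32 higher. The members held 0.858% and 0.859% of all counts in the 2 NrESC libraries of passage 8, from 0.945% to 1.01% in the other NrESC libraries, and from 0.966% to 1.06% in ESC libraries. In the same 2 libraries the fibroblast markers summed to 58.2 and 57.8 CPM, against at most 47.3 CPM in the other NrESC libraries. Only 5 of these 9 markers passed the filter on low counts, of which 4 were called higher and none lower in the passage 8 contrast. Over all NrESC libraries Pdgfrb was the largest part of the sum. Of the 8 embryonic stem cell markers, none of them at 0, 6 were lower and 2 higher in the passage 8 contrast (median -0.55), among them Zfp42 (-1.31), Sox2 (-0.85) and Nanog (-0.55) lower, and Dppa5a (0.40) higher. Their sums were 6982 and 7033 CPM at passage 8 of NrESC, against 8262 and 8445 CPM at passage 6 and 7614 and 7586 CPM at passage 10. The part of either marker list in the passage 8 result was not tested.

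**Figure D5:**
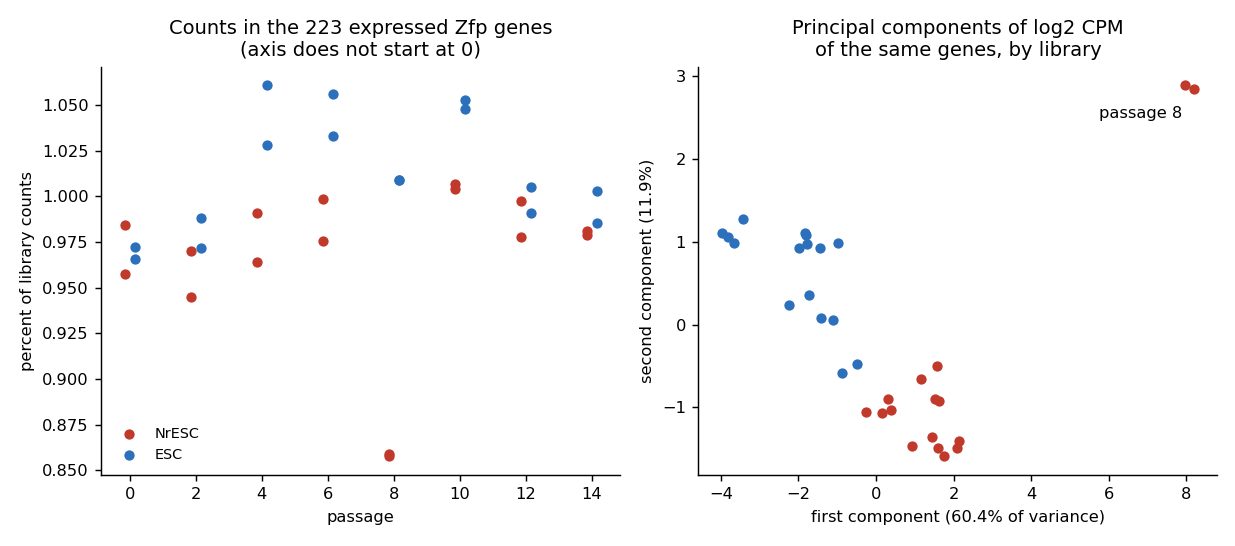
The left panel plots, for each library, the percent of its counts that fell on the 223 expressed Zfp genes against passage (NrESC red, ESC blue, axis not from 0), and the right panel the first 2 principal components of the log2 CPM of the same genes. The 2 NrESC libraries of passage 8 lie lowest on the left, at 0.858% and 0.859%, and furthest along the first component on the right, at 7.97 and 8.20.

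By 2-fold or more, 20 members were lower in that contrast (background 3.7%, and 1.95% of the genes with a mean CPM of 8 or more) and 1, Zfp36, was higher (background 6.27% and 0.93%). Zfp719 had 2.79 and 2.63 CPM in NrESC at passage 8, against 10.6 and 8.74 CPM at passage 6 and 8.85 and 9.13 CPM at passage 10, a log2 fold change of -1.79 (SE 0.11). Zfp345 had 4.58 and 4.47 CPM at passage 8, against 15.8 and 14.7 CPM at passage 6 and 15.7 and 16 CPM at passage 10 (-1.78, SE 0.081). Both had 1 low pair of libraries in an otherwise narrow range. Zfp459 fell by 1.68 on the log2 scale in the same contrast. Zfp36 had 19.5 and 18 CPM at passage 8, against 5.16 and 5.31 CPM at passage 6 and 5.89 and 6.21 CPM at passage 10 (1.74, SE 0.073). Zfp414 (0.83) and Zfp423 (0.75), a factor of neural and fat cell development, were the next highest. Zfp57 had 273 and 277 CPM at passage 8, against 504 and 497 CPM at passage 6 and 452 and 446 CPM at passage 10 (-0.78, SE 0.02), and so had its lowest level of all NrESC libraries there.

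Trends over passage number were few. Zfp777 was the 1 member with a called slope in NrESC (background 0.745% higher and 1.66% lower), at -0.03 log2 per passage (SE 0.0072, edgeR adjusted p = 0.0439). It had 62.5 and 61.8 CPM at passage 0 and 48.1 and 46.5 CPM at passage 14. Zfp523 was the 1 member with a called slope in ESC (background 0.219% higher and 0.259% lower), at -0.06 log2 per passage (SE 0.011, edgeR adjusted p = 0.0278), with 21.3 and 21.3 CPM at passage 0 and 12.6 and 11.9 CPM at passage 14. The call of Zfp777 was lost without passage 0, 2, 4, 6, 10 or 12, without a filter on low counts, and without the second NrESC library of passage 2, 4, 10, 12 or 14, and that of Zfp523 was lost without passage 0, 2, 10 or 12. Without passage 8, 9 members had a called slope in NrESC and 4 in ESC. The share over all genes tested is not given for that fit, so these counts are a description only. For no member was the slope called different between the arms (background 0.0133%), and DESeq2 called none. At an unadjusted p under 0.05, edgeR gave 2 members lower (0.897%) and none higher. The background at that threshold was 1.91% lower and 0.978% higher, and 1.31% and 0.888% among genes with a mean CPM of 8 or more.

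The promoter windows were also searched for AGGTCA, the core motif of nuclear receptor sites, on both strands. It was present in 25 of the 181 members with a window (13.8%), in 6 of 42 that rose, in 10 of 59 that fell, and in 18.1% of all 27025 genes with a window. The arrangement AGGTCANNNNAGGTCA, a direct repeat spaced by 4 bases that LXR with its partner RXR is known to bind, was present in no member's window and in 4 of all genes.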

How the data were processed

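RNA-seq libraries of NrESC and ESC cells were compared at 8 passages, 2 libraries per group. RSEM expected counts, the unit deposited for each gene symbol, carry no normalization, per the file headers. A TPM table was deposited too, in which the authors had divided by transcript length and set libraries to a common sum. The submitters' processing notes list Cufflinks 2.2.1, HTSeq 0.12.4, RSEM, STAR, edgeR and DESeq2 and the build mm9. What each tool did, the annotation and the strand setting are not given in the sources used here. Of all expected counts 0.837% were not whole (tolerance 1e-06) and were rounded. Totals of 24989651 to 50463483 counts per library set the precision.

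Genes were filtered with filterByExpr on the 16 groups and scaled with TMM (factors 0.979 to 1.03, edgeR 4.0.16 in R 4.3.3), and p-values were adjusted by Benjamini-Hochberg over all 15036 genes tested, threshold 0.05. The mean difference of the arms was tested on counts summed per arm and passage with passage as a block (7 residual degrees of freedom), the slopes on the same sums (12), and single passages, their variation and passage 8 of NrESC on the 32 libraries as 16 group means (16). Standard errors come from these models. Scripts were tested on simulated data. DESeq2 1.42.0 and limma 3.58.1 on log2(TPM + 1) were alternatives, as were other scalings, no filter, the library as the unit, a replicate block, and leaving out each library, replicate number and passage. The median SD (log2) of members was 0.0562 between the 2 libraries of a group, 0.166 between NrESC passages and 0.121 between ESC passages.

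Named members were the 12 highest and 12 lowest called fold changes with 1 sign at 8 of 8 passages, the highest and lowest called slopes, fold changes at passages 0 and 14 and in the passage 8 contrast, the 5 highest in TPM, and 20 genes with a known role, of which 19 are members; the run and left-out genes named besides were chosen after their values were seen. Members, lists and named roles were chosen with earlier results of these data known. Protein classes come from GENCODE M21 coding sequences of the GRCm38 build, which replaced the RefSeq proteins planned, with C2H2 and KRAB patterns; promoters and neighbours come from RefSeq. All 223 members matched a protein and 181 a promoter window. The E14 line and the reference genome come from different inbred strains.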

Additional observations from a re-analysis of the deposited data

Results flagged for a closer look

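The arm difference varied among passages for 186 of the 223 expressed Zfp genes in edgeR's joint test (83.4%). The share was 69.4% of all genes tested and 85.3% of the genes with a mean CPM of 8 or more. Without passage 8, in which the libraries of NrESC stand apart, it varied for 114 members (51.1%, against 51.7% and 66.6%). Among the named members, 3 were called with both signs. Zfp57 had log2 fold changes of NrESC over ESC of 0.27 at passage 0 and 0.37 at passage 14 but -0.40 at passage 8 (adjusted p = 3.65e-22 for the variation, edgeR), with 273 and 277 CPM in NrESC and 360 and 366 CPM in ESC at passage 8. Zfp414 was higher at passage 4 (0.33) and lower at passages 6 (-0.30), 10 (-0.56), 12 (-0.42) and 14 (-0.33), with an adjusted p of 5.51e-09 in edgeR. Zfp777 was higher at passages 0 (0.21) and 4 (0.10) and lower at passages 8 (-0.19) and 12 (-0.12), with an adjusted p of 6.75e-06 in edgeR.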

How the results depend on the processing

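The counts of members higher (51) and lower (70) in the mean of passages ran from 40 to 76 and from 58 to 101 over 49 alternatives, with more members lower than higher in each count by scaling, and the passage 8 contrast kept 132 to 144 lower. The number of called slopes, given here without the share over all genes tested, was unstable. In NrESC it was 35 with the library as the unit, 33 with the replicate block added, 10 with DESeq2, 0 with TPM and limma, without a filter, and without passage 0, 2, 6, 10 or 12, 9 without passage 8, 2 without passage 14, and 0 to 1 when 1 replicate was left out. In ESC it was 17 with the library as the unit, with or without the replicate block, 4 with DESeq2, 2 with TPM and limma, 0 without passage 0, 2, 10 or 12, 4 without passage 8, and 1 when 1 replicate was left out. The cause was not tested. Leaving out 1 replicate gave 30 to 48 members higher at passage 0 (30 without either NrESC library of that passage) and 37 to 57 at passage 2. Variation among passages was called for 114 members without passage 8 (51.1%, against 51.7% of all genes tested and 66.6% of the genes with a mean CPM of 8 or more). A limit of 16 CPM would give 146 members, and a strict finger pattern 25 members with no C2H2 match; runs with up to 10 genes between neighbours, an alternative chosen after seeing the data as were the counts by class, run, fold and overlap without passage 8, would hold 141 members. The log2 fold change of Zfp777 in the mean of passages, -0.02 with all libraries, turned to 0.0051 without passage 8. This fold change, which is not its slope, ran between -0.0481 and 0.0057 when 1 replicate was left out and was never called. Of the named members, 5 lost their call in 1 or more alternatives: Zfp296 without the second ESC library of passage 12 or the first NrESC library of passage 8 among others, Zfp410 without single libraries of passages 12 and 14, Zfp932 without the second ESC library of passage 6, and Zfp568 and Zfp719 without single passages. Another 8 gained one. Same-numbered libraries did not deviate together (correlations of -0.019 to 0.0616), and the replicate block left the counts for single passages within 1 of those reported. Members near 8 CPM rest on the fewest counts.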
